A study of Mus musculus with 1507 samples.

Results

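The merged transcript models of this study hold 6058 unannotated transcripts of 1 exon that lie outside the span of every annotated gene but within 10 kb of one, on either strand. They were taken from the 42592 transcripts that the authors assembled in addition to the GENCODE vM9 annotation, and are called proximal transcripts here. The other unannotated models have 2 or more exons (12593), overlap a gene (19321) or lie over 10 kb from any gene (4620). The study introduced RamDA-seq, a single-cell method that primes total RNA with oligo-dT together with short not-so-random primers, so that RNA without a poly(A) tail is also read. Proximal transcripts were followed in 2 sets of libraries from 5G6GR cells, a mouse ES cell line derived from EB5 that carries a randomly integrated Gata6-GR transgene. In the first set, total RNA of undifferentiated ES cells was read by rdRNA-seq (1 µg, rRNA-depleted, n = 3), paRNA-seq (1 µg, poly(A)-selected, n = 3), RamDA-seq (10 pg, n = 3) and C1-RamDA-seq (10 pg, RamDA-seq on the C1 microfluidic system, n = 4). In the second, single cells were read by RamDA-seq at 0 h and at 12, 24, 48 and 72 h after dexamethasone, which activates the Gata6-GR protein and turns ES cells into primitive endoderm (PrE). All cells grew in serum and LIF with puromycin, and dexamethasone took the place of blasticidin. The table of the time course holds 421 of the 456 labelled cells, with 90, 68, 90, 82 and 91 cells from 0 h to 72 h. The labels tie the cells of a time to no separate cultures, so that each time was treated as 1 sample and no test was run between times.

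Short transcripts around genes have several known origins. Active promoters that are rich in CpG often fire in both directions and give short, unstable antisense RNAs upstream of the gene. RNA polymerase often runs on past the poly(A) site of a gene, and enhancers, unannotated gene ends, pseudogenes and repeats are further sources. Some of these RNAs have no poly(A) tail, which oligo-dT methods need.

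The cells bore the labels of their times. TPM is a transcript's share of all transcripts of a library or cell, corrected for length. The summed mean TPM of 8 ES cell markers went from 824 at 0 h to 81.5 at 72 h. Among these markers, Klf4 rose from 32.53 TPM at 0 h to 46.98 TPM at 72 h, and each of the others fell. The summed mean TPM of 11 PrE markers went from 155 to 7935. Markers of trophectoderm, neural cells and mesoderm stayed at 4.27 or below in sum at every time. In 1 cell of 48 h, 71.1% of the TPM fell in unannotated transcripts, against 30.3% in the highest of the other cells and a median of 20.2%. The TPM of proximal transcripts summed to 192789 in this cell and to at most 28174 in any other, and values at 48 h that rest on it are given with and without it. The labels name no plate or batch for the cells, so an effect of either cannot be told apart from time. In the bulk RNA, fewer cells with a transcript and less of it per cell cannot be told apart.

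Proximal transcripts were short, with a median of 819 bases and a range of 201 to 9425. They had 3492 nearest genes, of which 2153 had 1 proximal transcript and the richest had 13, and 74.1% of the transcripts lay next to a protein-coding gene. By their place, 2058 (34%) were upstream of the nearest gene on the opposite strand and 1966 (32.5%) downstream on the same strand, followed by 1053 upstream on the same strand, 980 downstream on the opposite strand and 1 whose strand was not given. Upstream antisense transcripts piled up at the gene start: 986 lay within 1 kb and 295 in the second kilobase, down to 50 in the last. On the strand of the gene, 204 transcripts lay within 1 kb upstream. Downstream transcripts on the strand of the gene showed a gap instead, with 0 in the first kilobase, 1 in the second, 567 in the third and 90 in the last. The authors kept no model of the class that Cuffcompare gives to fragments close behind a gene on its strand, so RNA just past gene ends is not covered by these transcripts. Distance was counted from the nearest edge of the gene span.

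**Figure D1:**
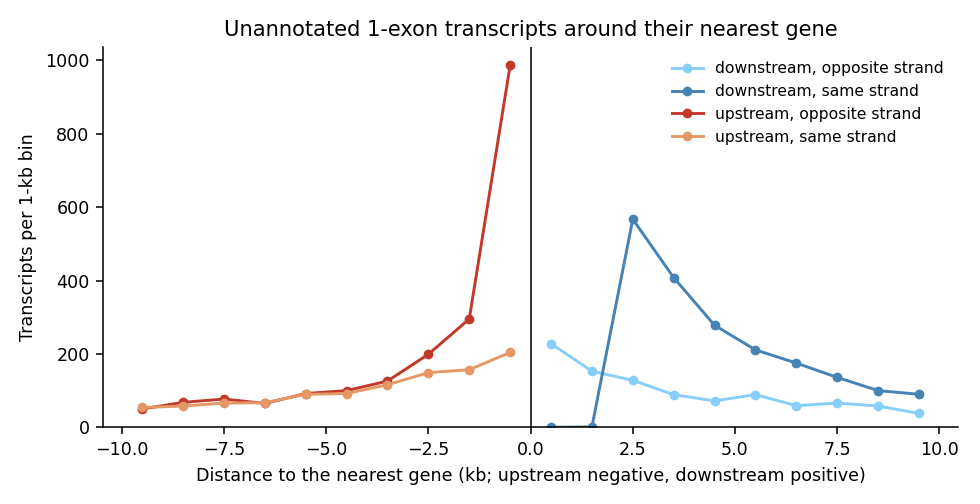
Number of proximal transcripts in each 1-kb bin of distance from the nearest gene, upstream at negative and downstream at positive distance, with 1 line for each side and strand. The bin just upstream on the opposite strand holds 986 transcripts, and the line for downstream transcripts on the same strand starts at 0 and peaks at 567 in the third kilobase.

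Later annotation took up part of the set. In GENCODE vM21, which uses the same mm10 assembly, 394 proximal transcripts (6.5%) overlapped an exon, 296 of them on their own strand. In RefSeq (GRCm38.p6), 1576 (26%) lay in a gene span. For 604 of these the RefSeq gene was the nearest gene itself, drawn longer than in vM9, for 603 it was another gene of the lncRNA class, and for 289 another protein-coding gene. Thus TCONS_00033775 lies within RefSeq Gata6os, an antisense RNA of the Gata6 locus, TCONS_00038941 within Banf2os and TCONS_00036551 within Gm9886.

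The promoters beside the upstream antisense transcripts were rich in G, C and CpG. The 986 antisense transcripts within 1 kb upstream belonged to 955 genes, 880 of them protein-coding, and RefSeq gave a promoter window of 250 bases before to 50 bases after the start for 677. In these windows the median GC content was 64.7% and the median ratio of observed to expected CpG was 0.863. The 7354 windows of other protein-coding genes with at least 1 TPM at 0 h had medians of 61.3% and 0.784, and the 8013 windows of genes under 1 TPM had medians of 50.7% and 0.267. The letters GGGCGG, the core of the GC box bound by Sp1 and related factors, were found on either strand in 73.4% of the 677 windows, in 67.5% and 28% of the other sets, and in 35.9% of all 27025 windows. TATAAA, the core of the TATA box, was found on either strand in 5.32%, 6.26% and 19.4% of the 3 sets and in 14.2% of all windows, and CCAAT in 40.3%, 39.4%, 37.8% and 37.9%. The genes with an antisense transcript had a higher median level at 0 h (12.8 TPM) than the other expressed genes (8.33 TPM), so their windows were not matched for level.

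Windows of 3 genes that are described below show how a proximal transcript sits at a start. Each is written on the strand of the gene, with the bases that also lie in the proximal transcript in capitals. The window of Serpinh1, a chaperone of collagen, is chr7:99353190-99353489 (minus strand, RefSeq, GRCm38.p6), and 146 of its bases lie in the antisense transcript TCONS_00061938.
Serpinh1: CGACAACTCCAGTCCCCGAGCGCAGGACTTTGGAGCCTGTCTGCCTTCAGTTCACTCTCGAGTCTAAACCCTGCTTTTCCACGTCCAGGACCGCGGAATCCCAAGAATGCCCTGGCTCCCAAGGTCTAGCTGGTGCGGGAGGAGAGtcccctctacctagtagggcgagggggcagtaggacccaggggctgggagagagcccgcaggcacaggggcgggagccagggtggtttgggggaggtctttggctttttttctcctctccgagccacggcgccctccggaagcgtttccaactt
The window of Nodal, a signalling protein of the TGF-beta family, is chr10:61417722-61418021 (plus strand), and 133 of its bases lie in TCONS_00005209, on the strand of the gene.
Nodal: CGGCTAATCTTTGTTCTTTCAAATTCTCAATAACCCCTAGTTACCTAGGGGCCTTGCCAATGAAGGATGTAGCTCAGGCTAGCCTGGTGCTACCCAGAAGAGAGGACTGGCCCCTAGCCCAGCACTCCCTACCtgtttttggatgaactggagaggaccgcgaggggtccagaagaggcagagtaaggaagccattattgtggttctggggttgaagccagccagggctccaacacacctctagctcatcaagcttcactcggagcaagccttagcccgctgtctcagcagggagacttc
The window of Wnk2, a protein kinase, is chr13:49148279-49148578 (minus strand), and 258 of its bases lie in TCONS_00019068, also on the strand of the gene.
Wnk2: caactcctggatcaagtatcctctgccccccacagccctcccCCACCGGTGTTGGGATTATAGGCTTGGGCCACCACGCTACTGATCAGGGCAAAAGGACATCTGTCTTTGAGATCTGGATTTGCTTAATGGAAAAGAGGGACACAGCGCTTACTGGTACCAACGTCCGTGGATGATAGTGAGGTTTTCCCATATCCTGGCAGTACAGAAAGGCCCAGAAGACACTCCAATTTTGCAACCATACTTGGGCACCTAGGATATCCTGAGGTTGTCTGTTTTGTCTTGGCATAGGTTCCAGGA
The Serpinh1 window has a GC content of 62.3% and holds GGGCGG, whereas the other windows have GC contents of 54% and 50.7% and hold CCAAT but not GGGCGG.

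Some proximal transcripts share stretches of letters with other genes. The bases of 155 could be read from a single exon of a GENCODE vM21 transcript. Of these, 60 shared at least 1 word of 31 bases, on either strand, with a transcript of another gene. Any gene but the one read from counted as another, so this can be the nearest gene, as for TCONS_00036727 and Nfkb2. In 7, at least 50% of the words were shared. The fourth highest proximal transcript by mean TPM over all times, TCONS_00060480 at chr7:12797585-12797797 (plus strand), is one of them. It lies in Gm18194, which vM21 lists as a transcribed processed pseudogene, all of its words (100%) also occur in other genes, and 207 of its 213 bases lie in words shared with Hmgb1, a chromatin protein. These bases are in capitals below, and the TPM of this transcript may hold reads of its copies.
TCONS_00060480: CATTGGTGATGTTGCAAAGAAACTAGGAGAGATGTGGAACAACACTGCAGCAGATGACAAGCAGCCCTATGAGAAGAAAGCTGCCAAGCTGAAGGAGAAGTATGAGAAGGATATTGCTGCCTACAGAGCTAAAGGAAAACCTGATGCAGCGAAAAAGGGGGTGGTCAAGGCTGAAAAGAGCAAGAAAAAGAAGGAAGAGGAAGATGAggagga

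For 2 proximal transcripts, TCONS_00016856 and TCONS_00036551, the study lists qPCR primers, shown here because both are described by time and by method.
TCONS_00016856 forward: AGCGATTGACGGATGGGTG
TCONS_00016856 reverse: TCCAGTTGCGTGGCAGAATAG
TCONS_00036551 forward: AAAGAGCATCACAGGCCGAG
TCONS_00036551 reverse: CATGGTCCCTGCCCCTTAAC

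Most proximal transcripts were found in bulk RNA and at most 44.3% in a single 10 pg library. The models were assembled from bulk reads, so the lead of bulk RNA was in part fixed in advance. With detection set at a TPM of at least 0.1, rdRNA-seq detected 4333, 4331 and 4551 of the 6058 (71.5% to 75.1%), and paRNA-seq 3492, 3476 and 3431. RamDA-seq detected 2509, 2391 and 2610, and C1-RamDA-seq 2562, 2682, 2598 and 2539. The ranges of rdRNA-seq, paRNA-seq and the 10 pg methods did not overlap, whereas those of RamDA-seq and C1-RamDA-seq did. Among all transcripts the methods came in the same order, since rdRNA-seq detected 71038 to 74042, paRNA-seq 67790 to 68184, C1-RamDA-seq 56008 to 57187 and RamDA-seq 51716 to 53245, but there the 10 pg methods did not overlap. At a TPM of at least 1 the order was different, since the mean of rdRNA-seq was 924, that of paRNA-seq 1239, that of RamDA-seq 1297 and that of C1-RamDA-seq 1306. Over all 13 libraries, 190 proximal transcripts were not detected. In single cells the median number detected was 2742 at 0 h (1174 to 3470) and 2439, 2401, 2224 and 2143 at the later times. Depth cannot be read from TPM. The authors drew the 10 pg libraries down to an equal number of reads and counted them on either strand, whereas for bulk RNA their methods describe a stranded count, so that input, depth and strand setting cannot be told apart between bulk and 10 pg libraries.

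**Figure D2:**
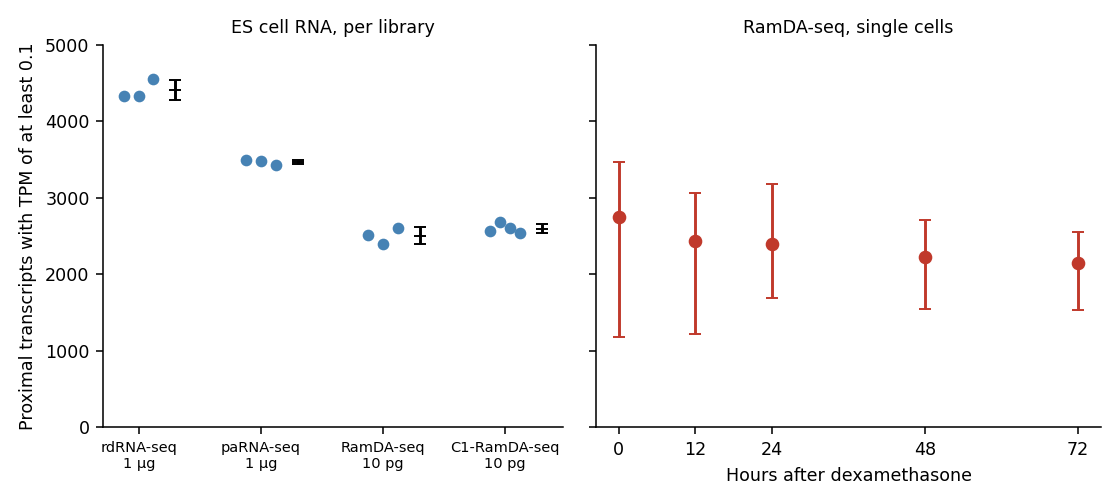
Number of proximal transcripts with a TPM of at least 0.1 in each ES cell library by method (points, with the mean and SD beside them) and in single cells by time (median, with lines from the lowest to the highest cell). The rdRNA-seq libraries reach 4331 to 4551 and the 10 pg libraries 2391 to 2682, and the median cell goes from 2742 at 0 h to 2143 at 72 h.

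By mean TPM over all times, a few very short proximal transcripts stood highest. TCONS_00058592, 267 bases next to a pseudogene (Eif3s6-ps4), had 554, 419 and 596 TPM in rdRNA-seq and 1343, 1556 and 1550 TPM in paRNA-seq. In single cells its mean was 876 TPM at 0 h, with every one of the 90 cells between 330 and 2302, and 12.1 TPM at 72 h, where 62 of 91 cells had at least 0.1 TPM. The other transcripts among the 5 highest were TCONS_00028212, TCONS_00074803, TCONS_00060480 and TCONS_00010413, at 213 to 340 bases, and their log2 ratios of 72 h over 0 h lay between -0.59 and 0.27. TPM divides by length, so a read counts for more in transcripts as short as these.

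The question of the poly(A) tail was put by setting rdRNA-seq against paRNA-seq. Of 4666 proximal transcripts tested by limma on log2(TPM + 1), 524 (11.2%) were higher in rdRNA-seq and 617 (13.2%) in paRNA-seq at an adjusted p under 0.05. Over all 76826 transcripts tested, the shares were 6.24% and 30.6%. The median difference (rdRNA-seq minus paRNA-seq, log2) was -0.05 for proximal transcripts and -0.40 for all transcripts. When the libraries were scaled to the same sum over protein-coding genes outside the mitochondrial genome, 909 proximal transcripts (19.2%) were higher in rdRNA-seq and 90 (1.90%) in paRNA-seq, beside 10.5% and 7.01% of all transcripts, the median of all transcripts was 0.04 and that of proximal transcripts 0.25. Without 1 of the 3 rdRNA-seq libraries, 75 to 79 proximal transcripts were higher in rdRNA-seq and 304 to 393 in paRNA-seq. Among all transcripts these counts were 947 to 982 and 17300 to 19198. The filter of 3 libraries then left out transcripts below 0.1 TPM in every paRNA-seq library, and 3901 to 3943 proximal transcripts were tested. At a mean of at least 1 TPM, 131 of 1445 were higher in rdRNA-seq and 507 in paRNA-seq, beside 1758 and 22678 of all 45700 transcripts.

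The place of a proximal transcript went with the direction. Upstream antisense transcripts within 1 kb of a gene were higher in rdRNA-seq in 158 of 737 cases (21.4%) and in paRNA-seq in 23 (3.12%). With distance the lean waned: at 5 to 10 kb upstream on the opposite strand the shares were 11.4% and 14.5%. Downstream transcripts on the strand of the gene had 105 of 1468 (7.15%) higher in rdRNA-seq and 249 (17%) in paRNA-seq. For upstream transcripts on the same strand the shares were 10.5% and 17.2%. After scaling to protein-coding genes, the same pair of groups gave 28.9% and 0.268% for upstream antisense transcripts within 1 kb and 14.3% and 2.33% for downstream same-strand transcripts, so that the order of the groups was the same and the direction of the second was not. These shares are descriptions, since transcripts of 1 run or gene share libraries and reads.

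**Figure D3:**
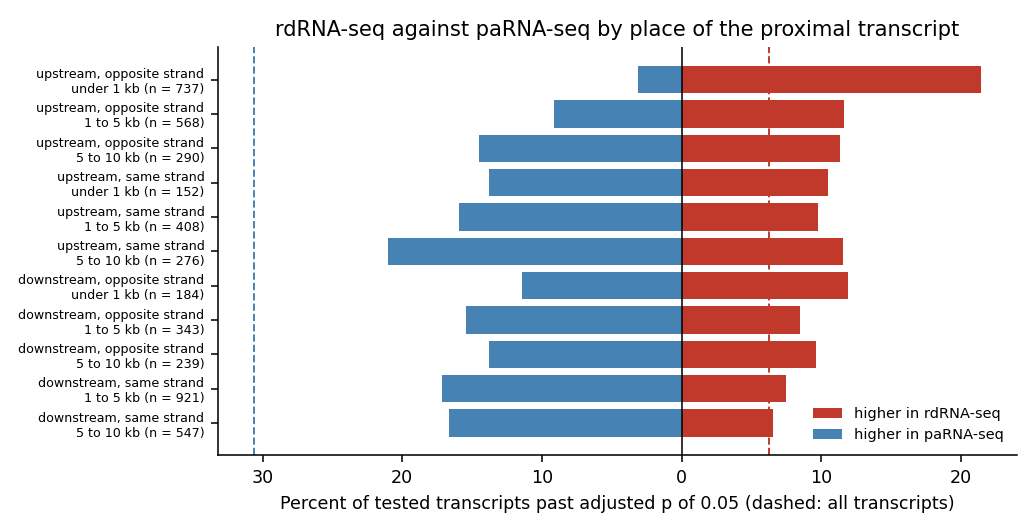
Percent of tested proximal transcripts that were higher in rdRNA-seq (red, to the right) or in paRNA-seq (blue, to the left) at an adjusted p under 0.05, by side, strand and distance, with the shares over all transcripts as dashed lines (6.24% and 30.6%). Upstream antisense transcripts within 1 kb stand out with 21.4% and 3.12%.

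Named examples show what lies behind these counts. TCONS_00036551 had 6.28, 10.1 and 11.7 TPM in rdRNA-seq and 0, 0.942 and 0.936 TPM in paRNA-seq, a log2 difference of 2.69 ± 0.36 (SE, adjusted p = 0.00196). TCONS_00046812, 6674 bases upstream of Gm27243 on the opposite strand, had 33.6, 32.2 and 34.8 TPM in rdRNA-seq against 5.23, 0 and 0 (4.23 ± 0.71, adjusted p = 0.00508). TCONS_00030770, which lies 383 bases upstream of Dynlt1c (a dynein light chain) on the opposite strand, had 7.22, 8.07 and 11.2 TPM in rdRNA-seq and was listed at 0 in all 3 paRNA-seq libraries (adjusted p = 0.000211). In each of these the groups did not overlap. TCONS_00030770 passed the filter of 3 libraries through rdRNA-seq alone, so its adjusted p is a description. In the other direction, TCONS_00008873, 7145 bases downstream of the olfactory receptor gene Olfr1388 on its strand, had 38.2, 65.5 and 50.9 TPM in rdRNA-seq and 544, 515 and 489 TPM in paRNA-seq (-3.33 ± 0.19, adjusted p = 0.000144). TCONS_00072155, downstream of Pih1d2 on the opposite strand, had 15.6, 3.98 and 21.8 TPM against 116, 124 and 82.1 TPM (-3.11 ± 0.56, adjusted p = 0.00656), a call that ended after scaling to protein-coding genes (adjusted p = 0.0636). TCONS_00060480, the Hmgb1-like transcript shown above, also belonged to this side, with 355, 379 and 411 TPM against 1330, 1313 and 1292 TPM (-1.78 ± 0.08, adjusted p = 7.66e-05). TCONS_00016856 was low in both, at 0.136, 0.205 and 0.233 TPM against 0.159, 0.0790 and 0.0811 TPM, and did not pass the test (0.11 ± 0.07, adjusted p = 0.304). These libraries are of undifferentiated ES cells, so its tail in PrE was not tested here. The study also used bulk PrE RNA to call transcripts without a tail.

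Few proximal transcripts told RamDA-seq at 10 pg from rdRNA-seq at 1 µg. Of 4164 tested, 33 (0.793%) were higher in RamDA-seq and 115 (2.76%) in rdRNA-seq, beside 2.91% and 3.04% of all transcripts. The second count was 571 with a pseudocount of 0.1, where 6176 of all 69947 transcripts were called in this direction, and 329 (7.45%) after scaling to protein-coding genes, beside 5.66% of all transcripts. Leaving out any 1 library brought the counts to 10 to 24 and 12 to 29, beside 1031 to 1272 and 573 to 1258 of all transcripts. The filter of 3 libraries then left out transcripts found only in the method that lost a library. TCONS_00045160, downstream of Gm43733 on its strand, had 5.11, 6.91 and 5.91 TPM in RamDA-seq and 0.198, 0 and 0.224 TPM in rdRNA-seq (2.61 ± 0.34, adjusted p = 0.00571). TCONS_00041487, which RefSeq places within the span of Mga (a MAX-binding transcription factor), had 2.07, 0 and 2.07 TPM in RamDA-seq and 33.3, 40.6 and 38.8 TPM in rdRNA-seq (-4.19 ± 0.46, adjusted p = 0.00263). This comparison shares its rdRNA-seq libraries with the one above.

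On the C1 system, 41 of 3104 proximal transcripts (1.32%) were higher than in RamDA-seq and 27 (0.870%) lower, against 4.25% and 0.986% of all transcripts. After scaling to protein-coding genes, 11 (0.352%) were higher in C1-RamDA-seq and 45 (1.44%) lower, and the shares of all transcripts turned in the same way, to 1.24% and 1.88%. Without 1 of the 3 RamDA-seq libraries, 11 to 14 transcripts were lower in C1-RamDA-seq. The clearest cases were present in one method and listed at 0 in the other. Such cases pass the filter of 3 libraries only through the method where they are high, so their adjusted p-values are descriptions. TCONS_00028212, the highest proximal transcript over the time course, had 105, 97.9 and 74.5 TPM in RamDA-seq and was listed at 0 in all 4 C1-RamDA-seq libraries (adjusted p = 1.35e-06). TCONS_00001584 had 66.9, 127 and 96.6 TPM against 0 in all 4 (adjusted p = 1.82e-06), and was also higher in paRNA-seq (379, 387 and 378 TPM) than in rdRNA-seq (102, 93.8 and 117 TPM). TCONS_00006495 went the other way, with 125, 165, 115 and 91 TPM in C1-RamDA-seq and 10.1 TPM in 1 RamDA-seq library, the others being near 0 (5.78 ± 0.70, adjusted p = 0.000495). The RamDA-seq libraries are those of the comparison with rdRNA-seq.

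During differentiation, proximal transcripts as a set went down more often than up. Of 3489 with a mean of at least 0.5 TPM at any time, 323 (9.26%) were at least 2-fold higher at 72 h than at 0 h and 1059 (30.4%) at least 2-fold lower, on means with 0.1 TPM added. Among all 82045 transcripts measured in the same way, 17.4% were higher and 18.6% lower. The median log2 ratio was -0.37 for proximal transcripts, -0.02 for all transcripts and -0.70 for unannotated transcripts over 10 kb from genes. The median number of all transcripts detected per cell was 57208 at 0 h and 52909 at 72 h, and its part in this lean was not tested. With 1 TPM added in place of 0.1, the counts were 121 and 409, and the shares over all transcripts at this setting were not computed.

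The largest step was the first. Between 0 h and 12 h, 572 proximal transcripts (16.4%) were at least 2-fold lower and 88 (2.52%) higher, beside 8.51% and 6.61% of all transcripts. Between 12 h and 24 h, 231 were lower and 188 higher, beside 4.83% and 8.14%. Between 24 h and 48 h, 308 were lower and 174 higher, beside 7.19% and 5.25%, and without the 48 h cell that stands apart the latter count was 118. Between 48 h and 72 h, 261 were lower and 60 higher, beside 4.24% and 2.84%, and without that cell 192 were lower.

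The proximal transcript with qPCR primers that gained most was TCONS_00016856, of 3902 bases, 4742 bases downstream of Gm2399 on its strand. Its mean went from 1.25 TPM at 0 h over 1.72, 4.30 and 13.2 to 25.8 TPM at 72 h. The cells of 0 h had a lowest value of 0, a median of 0.811 and a highest of 7.32 TPM, and those of 72 h had 0.0823, 22.6 and 83.4 TPM. At 0 h, 76 of 90 cells had at least 0.1 TPM (84.4%, exact 95% interval 75.3% to 91.2%), and at 72 h 90 of 91 (98.9%, 94% to 100.0%). The median cell of 72 h was thus above the highest cell of 0 h, though the ranges overlap. Gm2399 itself went from 7.97 to 95.4 TPM. TCONS_00016858, a second transcript further downstream of Gm2399, went from 0.280 to 13.2 TPM, and the 6 proximal transcripts of this stretch all passed 2-fold.

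Among those present in at least 50% of the cells of 72 h, the 10 with the largest ratio lay next to genes of several kinds. TCONS_00033775, of 230 bases within RefSeq Gata6os, was listed at 0 in all 90 cells of 0 h, which by a limit of 3 counts allows up to 3.33% of cells to have a read of it (cells with a read, not cells that express it), and had means of 2.38, 4.72, 2.55 and 4.33 TPM at the later times. It was the earliest of the 10. TCONS_00073078, downstream of Pth1r (the receptor of parathyroid hormone and its related peptide, known in parietal endoderm), went from 0.0779 to 5.11 TPM, while Pth1r went from 0.0262 to 72.7 TPM. TCONS_00019068 lies 59 bases upstream of Wnk2 on its strand, but overlaps Wnk2 itself as RefSeq draws that gene. Wnk2 went from 0.309 to 12.0 TPM. TCONS_00019068 was at 0 in all cells of 0 h and 12 h, then at 0.250, 1.43 and 3.15 TPM. The cells of 72 h had 0 to 18.4 TPM of it, with a median of 2.29 TPM. TCONS_00016935 and TCONS_00016905 lie next to Prl2c2 and Prl2c3, members of the duplicated prolactin family, and went from 0.117 to 6.41 TPM and from 0.252 to 9.33 TPM. For such near-identical genes the sharing of reads cannot be told apart. TCONS_00021239, 1850 bases upstream of Neil2 (a DNA glycosylase) on the opposite strand, went from 0.00523 to 3.46 TPM although Neil2 went from 1.07 to 0.645 TPM.

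The 10 with the smallest ratio were nearly switched off. Among them, 6 lie on the minus strand of chromosome 9 around Olfr986 and Zfp202 (chr9:40176999-40222370). Others in the same region were not, such as TCONS_00071904 with 43.2 TPM at 0 h and 39.3 TPM at 72 h, which was picked after its values were seen. Of its words of 31 bases, 70.1% also occur in other genes, so its TPM may hold reads of copies. The highest, TCONS_00071905, went from 25.9 TPM at 0 h over 9.98, 3.04 and 0.0458 TPM to 0 at 72 h. The cells of 0 h had 0 to 63.6 TPM, with a median of 26.05 TPM and 87 of 90 cells detected, and all 91 cells of 72 h were at 0, which by the same limit of 3 counts allows up to 3.30% of cells with a read. TCONS_00058315, 2530 bases downstream of Klrb1f (a lectin-like receptor gene at 0 TPM at both times) on its strand, went from 69.3 over 65.7, 30.2 and 4.68 to 0.393 TPM. Every cell of 0 h had between 12.5 and 163 TPM of it. TCONS_00038941, within RefSeq Banf2os, went from 74.6 to 0.460 TPM. TCONS_00073152 was the quickest, from 12.4 TPM at 0 h to 0.718 at 12 h and 0 at 24 h. TCONS_00036551, the second one with qPCR primers, went from 4.17 over 3.69, 0.624 and 0.331 to 0.0204 TPM. It was found in 63 of 90 cells of 0 h (exact 95% interval 59.4% to 79.2%) and in 1 of 91 cells of 72 h (1.1%, 0.0278% to 5.97%). These intervals cover counting error only.

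**Figure D4:**
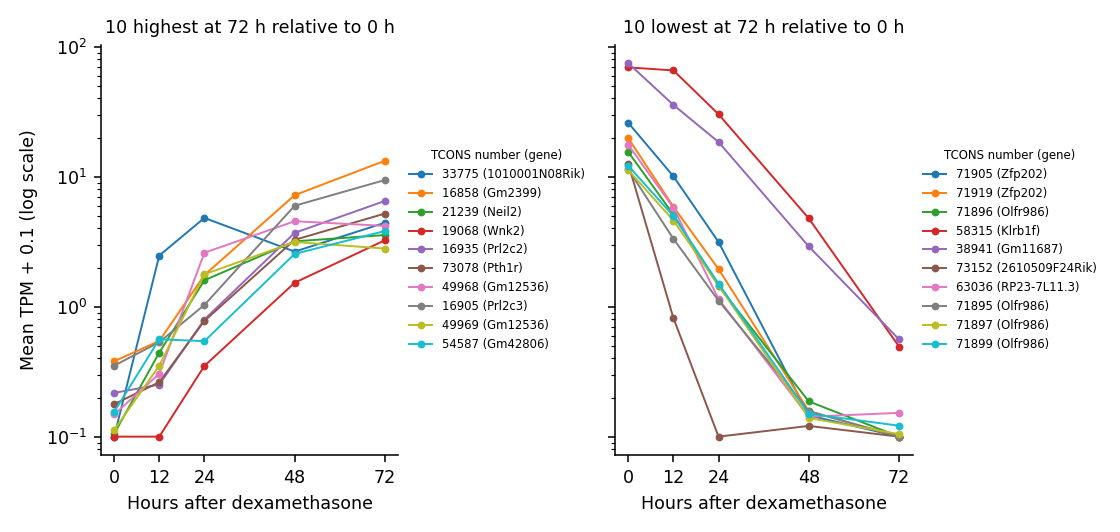
Mean TPM + 0.1 over the cells of each time (log axis) for the 10 proximal transcripts with the largest and the 10 with the smallest ratio of 72 h over 0 h, labelled by TCONS number and nearest gene. TCONS_00033775 is up already at 12 h, and the 6 of them near Olfr986 and Zfp202 pass from 11.2 to 25.9 TPM at 0 h to at most 0.0214 TPM at 72 h.

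Within a stretch of neighbouring proximal transcripts, opposite changes were rare. With gaps of at most 5 kb on 1 strand, the 6058 fell into 3735 stretches, 2499 of them of a single transcript and the longest of 15. Of 336 stretches with 3 or more measured transcripts, 26 had all of them at least 2-fold higher at 72 h and 77 all at least 2-fold lower, and 1 held transcripts of both directions. This last one lies next to P4ha1, a subunit of prolyl 4-hydroxylase. The 11 transcripts of chr7:107308295-107329734 (plus strand), beside Platr28 (a lncRNA of pluripotent cells), went from 1.82 to 5.10 TPM at 0 h to 0 to 2.08 TPM at 72 h. Both upward stretches of 8 gained at least 1.49 on the log2 scale in each transcript, that of chr13:12801001-12809947 at Prl2c3 and that of chr15:31275310-31289196 (minus strand) at Ankrd33b and Fam136b-ps, the latter from 0.324 to 0.888 TPM at 0 h to 2.29 to 6.14 TPM at 72 h. The 15 transcripts of chr1:23258219-23290352 beside Mir30a stayed within 2-fold, with log2 ratios of -0.995 to -0.314. Such pieces may belong to 1 longer RNA, so their number overstates the number of units, and the stretches were defined after the values had been seen.

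Some proximal transcripts peaked or dipped on the way. With all cells, the 5 with the largest excess of a middle time over both ends all had it at 48 h, and without the cell that stands apart the smaller of the 2 log2 ratios went from 3.41 to 3.84 down to 0.16 to 0.31 (TCONS_00054541, TCONS_00042327, TCONS_00062065, TCONS_00063117 and TCONS_00057690). Without this cell, the clearest peak was TCONS_00025968, 47 bases upstream of C1ql4 (a secreted protein of the C1q family) on its strand, at 0.174, 7.08, 6.01, 1.70 and 0.720 TPM from 0 h to 72 h. TCONS_00027236, 2477 bases downstream of Vgll3 (a cofactor of TEAD factors), had its highest mean at 12 h, at 0.185, 1.76, 0.722, 0.231 and 0.375 TPM. GENCODE vM21 places TCONS_00027236 in an exon of Vgll3 itself. The clearest dips were TCONS_00024120, downstream of Parvb (beta-parvin, a protein of focal adhesions), at 2.03, 0.260, 0.906, 2.95 and 3.01 TPM without that cell, and TCONS_00009693 at Mir193a, at 1.99, 0.314, 0.191, 0.369 and 1.5 TPM.

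Proximal transcripts tended to move with the nearest gene. Across 3350 pairs the log2 ratios of 72 h over 0 h gave a Pearson correlation of 0.60 and a Spearman correlation of 0.62. For downstream transcripts on the strand of the gene it was 0.73 (1322 pairs), for upstream ones on the same strand 0.59 (618), and for both antisense groups 0.51 (797 upstream and 612 downstream). Within the downstream same-strand group it was 0.73 at 1 to 5 kb and 0.72 at 5 to 10 kb. Close to the gene start, under 1 kb, it was 0.72 for upstream same-strand transcripts (112 pairs) and 0.61 for upstream antisense ones (278 pairs), against 0.57 and 0.48 at 5 to 10 kb. Of the 129 downstream same-strand transcripts that were at least 2-fold higher at 72 h, 104 had a nearest gene also at least 2-fold higher. In this group 0 had one that was 2-fold lower. Of the 345 downstream same-strand transcripts that were lower, 194 had a lower gene and 5 a higher one. Among upstream antisense transcripts, 43 of 79 that were higher had a higher gene and 4 a lower one, and 125 of 215 that were lower had a lower gene and 2 a higher one. With 1 transcript per gene the overall correlation was 0.54 (1976 pairs), and with 1 TPM added 0.44. The pairs share cells and times and some share a gene, so these values carry no test. Single-cell reads were counted on either strand. Here and in the other single-cell values, same strand and antisense thus describe the model, and the strand of the reads is not known. Of all 6058 proximal transcripts, 604 overlap the RefSeq span of their nearest gene. Some pairs may thus set a gene against a part of itself, and the share of this in the correlations was not tested.

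**Figure D5:**
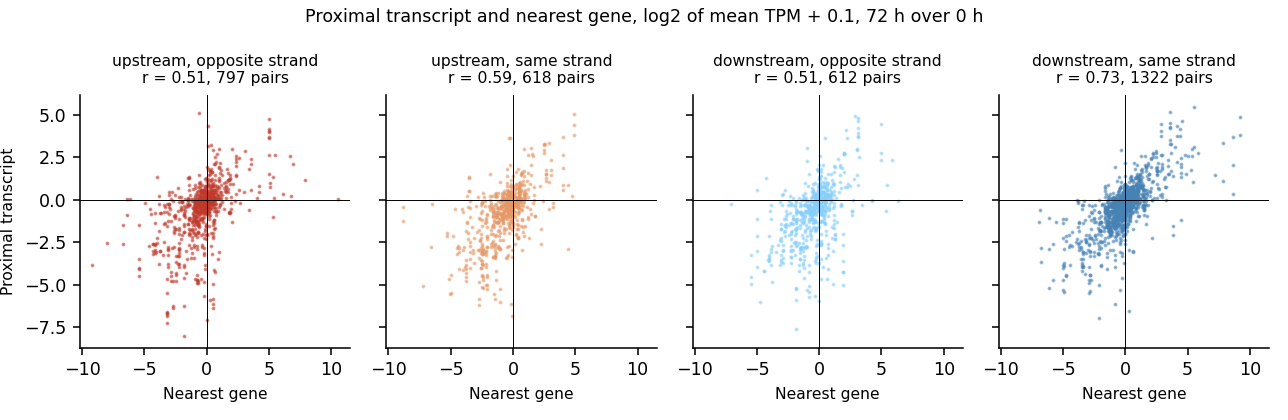
Log2 ratio of 72 h over 0 h (mean TPM + 0.1) of each proximal transcript (vertical) against that of its nearest gene (horizontal), in 4 panels by side and strand. The downstream same-strand panel is the tightest (r = 0.73, 1322 pairs), whereas both antisense panels have r = 0.51. Strand is that of the model, since single-cell reads were counted on either strand.

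Genes of the ES cell state had 37 proximal transcripts at 18 of 33 listed genes, of which 21 at 12 genes were measured. Of these, 16 were at least 2-fold lower at 72 h and 0 higher, with a median log2 ratio of -1.497, where 18.6% of all transcripts and 30.4% of proximal ones were lower and the medians were -0.02 and -0.37. Zfp42 (Rex1, a marker of undifferentiated cells) had 2 downstream on its strand, TCONS_00068153 and TCONS_00068154, which went from 4.49 and 5.37 TPM to 0.110 and 0.142 TPM, with the gene at 105 and 3.72 TPM. Most of this happened by 12 h, where they stood at 0.332 and 0.373 TPM. TCONS_00004498, upstream of Lefty2 (an inhibitor of Nodal) on the opposite strand, went from 1.32 TPM to 0, with Lefty2 at 77.2 and 0.0344 TPM. The 4 transcripts downstream of Dppa4, a chromatin-associated protein of pluripotent cells, were at 0.670 to 1.25 TPM at 0 h and at 0.0229 to 0.307 TPM at 72 h. Others parted from their gene. TCONS_00005209, which reaches into the Nodal window shown above, stayed at 26.7, 25.6, 30.1, 22.2 and 22.1 TPM, with every cell of 0 h between 3.8 and 77.7 TPM and every cell of 72 h between 3.93 and 40.5 TPM, while Nodal went from 14.9 to 0.0643 TPM. The 2 transcripts downstream of Klf5 (a Krüppel-like factor) went from 1.1 and 1.92 TPM at 0 h to 2.26 and 4.21 TPM at 24 h. At 72 h they stood at 0.327 and 0.617 TPM, although Klf5 had 118 TPM at 0 h and 110.5 TPM at 72 h. TCONS_00031720, 9193 bases upstream of Pou5f1 (Oct4), had 6.21 and 5.21 TPM, while Pou5f1 went from 229 to 25.7 TPM.

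Genes of PrE had 27 proximal transcripts at 11 of 38 listed genes, of which 16 at 9 genes were measured. Of these, 11 were at least 2-fold higher at 72 h and 2 lower, with a median log2 ratio of 1.87, where 17.4% of all transcripts and 9.26% of proximal ones were higher. Laminin chains build the basement membrane of this layer. The 3 transcripts downstream of Lamc1 went from 0.152, 0.0881 and 1.17 TPM to 3.21, 3.63 and 5.74 TPM, with Lamc1 at 72.6 and 1253 TPM. All 3 had their highest mean at 48 h. TCONS_00015837, upstream of Lamb1 on the opposite strand, went from 0.799 to 3.79 TPM, whereas Lamb1 went from 9.29 to 1169 TPM. At Lama1 the antisense transcript upstream, TCONS_00032234, went from 0.605 over 1.39 TPM at 12 h to 0.244 TPM at 72 h. The same-strand transcript downstream, TCONS_00030368, went from 0.0978 to 0.548 TPM, with Lama1 at 39.6 and 1561 TPM. TCONS_00061938, the antisense transcript of the Serpinh1 window shown above, was at 0 in all 90 cells of 0 h and had 0.394, 0.585, 0.584 and 0.497 TPM later, where 14 of 91 cells of 72 h had it (15.4%, 8.67% to 24.5%), and Serpinh1 went from 8.19 to 836 TPM. Pdgfra, the receptor that marks PrE, had 3 transcripts downstream, at 0.0514, 0.0104 and 0.859 TPM at 0 h and 0.517, 1.34 and 1.09 TPM at 72 h. TCONS_00005229, upstream of Srgn (the proteoglycan serglycin) on the opposite strand, had 0.344 and 0.364 TPM, although Srgn went from 0.203 to 455 TPM. TCONS_00011659, 578 bases upstream of P4ha2 (a subunit of prolyl 4-hydroxylase) on the opposite strand, had 7.91 TPM at 0 h and 10.2 TPM at 72 h, while P4ha2 went from 3.93 to 279 TPM. Its mean of 43.4 TPM at 48 h was 10.8 TPM without the cell that stands apart. TCONS_00040955, upstream of Lrp2 (megalin), was one of the 2 that were lower, from 0.723 to 0.0119 TPM, and only 14 of 90 cells of 0 h had it. The gene lists were chosen with earlier results known, so their direction is no independent evidence.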

How the data were processed

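Bulk reads were trimmed by the authors, aligned to mm10 with HISAT2 2.0.1, assembled with Cufflinks 2.2.1 (versions from the submitters' processing notes), filtered by Cuffcompare class and merged with GENCODE vM9. Expression was deposited as TPM (a share of all transcripts of a library, scaled by length), which the authors estimated with Sailfish. The methods give an unstranded setting for single cells and for the 10 pg libraries, the latter drawn down to an equal number of reads, and a stranded setting for bulk RNA on the merged models. Which setting and depth the bulk columns of this table have is not given in the sources used here, so the depth behind a value is unknown. In the table by method, 8 columns matched to no labelled sample were not used, and SMART-Seq v4 libraries were not analysed here. The comparisons of RamDA-seq and C1-RamDA-seq were chosen after the data were seen.

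A proximal transcript has an unannotated model of 1 exon, overlaps no gene span and lies within 10 kb of one. The nearest gene is the one with the fewest bases between, and its level is the summed TPM of its transcripts. Methods were compared with limma 3.58.1 (R 4.3.3, trend) on log2(TPM + 1) over all transcripts with at least 0.1 TPM in at least 3 libraries of the comparison, with Benjamini-Hochberg adjustment over all tested and a threshold of 0.05, and differences are on that scale. The script was tested on simulated data. The labels name no separate cultures or extractions for the replicates, so p-values measure only the spread between these libraries. Times were compared by means over cells with 0.1 TPM added, for transcripts of at least 0.5 TPM at any time. Members and gene lists were chosen with earlier results of these data known. Transcripts named are those with qPCR primers, the 10 with the largest ratio of 72 h over 0 h in each direction found in at least 50% of cells at the higher time, the 5 largest peaks and dips, the 5 highest, the 5 called with the largest difference in each direction per comparison with no overlap of the groups and a mean of at least 1 TPM, and those next to listed genes. Stretches, and peaks without 1 cell, were chosen after their values were seen. Promoter windows are from RefSeq (GRCm38.p6), and a share of cells has an exact binomial interval.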

Additional observations from a re-analysis of the deposited data

Results flagged for a closer look

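In the 4 C1-RamDA-seq libraries, 8 of 29 values tested had 1 library far from the other 3 (Dixon's ratio above its 95% critical value). Chance gives about 1 in 20, but for 5 of the 8 the other 3 libraries are at 0, which puts the ratio above that value whatever the level, so their number is not read against chance. The summed TPM of proximal transcripts was 11793 in replicate 4 and 13329 to 13491 in the others. TCONS_00010413, upstream of Psmd12, had 87.1 TPM in replicate 4 and 130 to 139 TPM in the others, whereas TCONS_00006174, upstream of Glipr1l1, had 18.7 TPM there and 0.683 to 3.39 TPM in the others. The remaining 5 were found in 1 library and listed at 0 in the other 3: TCONS_00045013 (2.23 TPM), TCONS_00003989 (5.59 TPM) and TCONS_00050144 (6.34 TPM) in replicate 1, and TCONS_00072155 (1.42 TPM) and TCONS_00074034 (1.05 TPM) in replicate 2. The other methods have 3 libraries each and were not tested in this way.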

How the results depend on the processing

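For rdRNA-seq against paRNA-seq, the counts of proximal transcripts higher in each method (524 and 617) stayed within 1.5-fold with a pseudocount of 0.1, without the filter and near protein-coding genes only. They were 909 and 90 after scaling to protein-coding genes. In 1 fit on all 4 methods they were 180 and 220, beside 1460 and 12666 of all 95925 transcripts. At a mean of at least 1 TPM, 131 of 1445 tested were higher in rdRNA-seq and 507 in paRNA-seq, beside 1758 and 22678 of all 45700 transcripts. Within 5 kb, where fewer were tested, 393 were higher in paRNA-seq. Leaving out 1 library gave 75 to 427 and 304 to 557, with the low values when an rdRNA-seq library was left out. Transcripts found only in the method that lost a library could then not pass the filter of 3 libraries. Same-numbered libraries did not deviate together (correlations of -0.0124 to 0.00257). Libraries of different numbers lay as near 0 (-0.0104 to 0.0106), so these values cannot settle whether the numbers pair the libraries. With a replicate block the counts were 318 and 330, and 29 in place of 115 for rdRNA-seq over RamDA-seq. For RamDA-seq against rdRNA-seq (33 and 115), the first count was 17 within 5 kb and 11 without the filter, and the second 571 with a pseudocount of 0.1, 16 without the filter, 43 at a mean of at least 1 TPM and 329 after scaling. Leaving out 1 library gave 10 to 24 and 12 to 29. For C1-RamDA-seq against RamDA-seq (41 and 27), the counts were 21 and 7 within 5 kb, 23 and 15 without the filter, 11 and 45 after scaling, 92 and 84 in 1 fit on all methods, and 33 to 40 and 11 to 25 without 1 library. The replicate block left out the fourth C1-RamDA-seq library. Detection at 1 TPM gave means of 924 (rdRNA-seq), 1239 (paRNA-seq), 1297 (RamDA-seq) and 1306 (C1-RamDA-seq), and within 5 kb 3143, 2406, 1705 and 1788. Without 1 library the means were 4332 to 4442, 3454 to 3484, 2450 to 2560 and 2566 to 2614. Between 72 h and 0 h the counts (323 and 1059) were 121 and 409 with 1 TPM added, and the lower count was 1611 at a mean of at least 0.1 TPM and 656 within 5 kb. With 1 TPM added or a mean of at least 0.1 TPM, shares over all transcripts were not computed. The correlation with the nearest gene was 0.44 with 1 TPM added. With a gap of at most 1 kb, 221 stretches had 3 or more measured transcripts, 16 all higher, 51 all lower and 0 of both directions. Of 59 ratios of 72 h over 0 h for named transcripts, 47 moved by over 1.5-fold with 1 TPM added and 29 with medians over cells, where that of TCONS_00052767, downstream of Pdgfra, went from 0.31 to -0.49. Of the 10 named calls per comparison, 4 were lost after scaling for rdRNA-seq against paRNA-seq, and 5 without the filter for RamDA-seq against rdRNA-seq. The causes of these shifts were not tested. The comparisons with SMART-Seq v4 were not run. Depth is not known from TPM, so a transcript at 0 may lie below detection, and single-exon models may be pieces of longer RNAs or share reads with copies elsewhere.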
